A study of Pinus pinaster with 21 samples.

Results

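Small RNA of maritime pine (Pinus pinaster) roots irrigated with water was compared between 24 h and 2 h after the irrigation. The comparison rests on 6 of the 21 libraries of the series, 3 at 24 h and 3 at 2 h, and pairs them by the number of the experiment (1, 2 or 3) that both libraries of a pair came from. It uses the 728 of 32711 identifiers that had a count above 0 in all 6 libraries. The deposited table gives each small RNA a serial identifier from MIR_0 upwards and pairs it with no sequence, family name or position, so no sequence is printed and no role can be given to an identifier.

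All 6 water samples were roots of 1-month-old seedlings of the provenance Segura-Alcaraz, raised in vermiculite and kept for 3 days on a nutrient solution that lacked nitrogen. They then received 80 mL of water and no ammonium, and roots were frozen 24 h or 2 h later. Each library is a pool of 10 seedlings, and the labels' protocols say that the experiment was carried out independently 3 times. The rest of the series holds roots given 0.1 mM or 3 mM NH4Cl, at the same times, and roots taken before irrigation. Since both groups received the same water and the same nitrogen-free solution, the comparison holds time after irrigation, seedling age and, as far as the labels go, hour of the day, which cannot be told apart.

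Plant miRNAs are short RNAs that Dicer-like enzymes cut from hairpin transcripts and that guide Argonaute proteins to matching mRNAs, which are then cut or translated less. In roots, known plant miRNAs act in lateral root growth, auxin signalling and the responses to nitrate, phosphate and sulfate supply. A size-selected library can also hold small interfering RNAs and pieces of other RNAs, and the table does not separate these from miRNAs.

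The 6 libraries held 5947601 to 7780373 counts, and the 728 identifiers carried 64.4% to 66.7% of the counts in 5 of them and 71.5% in the 2 h library of experiment 1. The smallest listed count is 5, and a 0 is read as not listed in that library and not as absence. Of the 13056 identifiers that any of the 6 listed, 7665 (58.7%) were listed by exactly 1 and 728 (5.58%) by all 6. Levels below are CPM, an identifier's count scaled to a common total, here the summed counts of the 728 identifiers in each library. Depth allowed median counts of 30.5 for the 20 identifiers under 10 CPM and of 87326 for the 14 at or above 10000 CPM, and a count's own precision covers counting error only.

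At 24 h against 2 h after water, no small RNA passed the test. The quasi-likelihood F test of edgeR with the experiment as a block, two-sided and with Benjamini-Hochberg adjustment over the 728 identifiers, called 0 at an adjusted p under 0.05 (0% called), with 31 (4.26%) at an unadjusted p under 0.05 and a smallest adjusted p of 0.501. DESeq2 called 2 (0.275%), MIR_247 and MIR_4164, while limma-voom and limma-trend called 0 with 36 each at an unadjusted p under 0.05. Without experiment 2, edgeR called 1, MIR_1069 (1.52 log2 units, adjusted p = 0.0311), which stood at 2702, 1112 and 2735 CPM in experiments 1, 2 and 3 at 24 h, against 1035, 3329 and 872 CPM at 2 h.

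Differences are given as 24 h minus 2 h, from edgeR unless said otherwise. The median absolute difference from limma was 0.14 log2 units on the log2(CPM + 1) scale, and 653 of the 728 had a 95% limma interval that stayed between -1 and 1 log2 units. All limma intervals given here are for single identifiers and are not adjusted for the number tested, so an interval that leaves out 0 is no call. The estimate itself exceeded 1 log2 unit in 7 identifiers, 3 of them higher and 4 lower at 24 h. Of these 7, MIR_247 was higher and MIR_804, MIR_4164 and MIR_4752 were lower at 24 h in all 3 experiments. In MIR_320, MIR_1086 and MIR_12850 the experiments differed in direction.

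For 2 of those 3, a single library stood apart from the other 5. MIR_320 had 5.25, 15.5 and 8.48 CPM at 24 h in experiments 1, 2 and 3, against 2.06, 1068 and 6.19 CPM at 2 h. Only the 2 h library of experiment 2 was high. MIR_1086 had 1133, 1528 and 1156 CPM at 24 h, against 12.9, 1005 and 1801 CPM at 2 h, and only the 2 h library of experiment 1 was low. Their limma intervals were wide, -4.12 to 1.06 log2 units for MIR_320 and -0.34 to 4.55 for MIR_1086.

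Direction depended on the scaling. With CPM of the 728 identifiers, 131 (18.0%) were higher at 24 h in all 3 experiments and 41 (5.63%) lower. With TMM factors these numbers were 85 (11.7%) and 75 (10.3%), and 72 and 32 identifiers were higher or lower under both scalings. The median difference over all identifiers was 0.07 log2 units with CPM and 0.00 with TMM, and by experiment with CPM it was -0.07, 0.15 and 0.14 log2 units in experiments 1, 2 and 3. Every 24 h library lay above every 2 h library for 29 identifiers (3.98%) with CPM and 22 (3.02%) with TMM. Every 24 h library lay below every 2 h library for 8 (1.10%) and 19 (2.61%), and 12 higher and 3 lower identifiers were apart under both scalings.

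**Figure D1:**
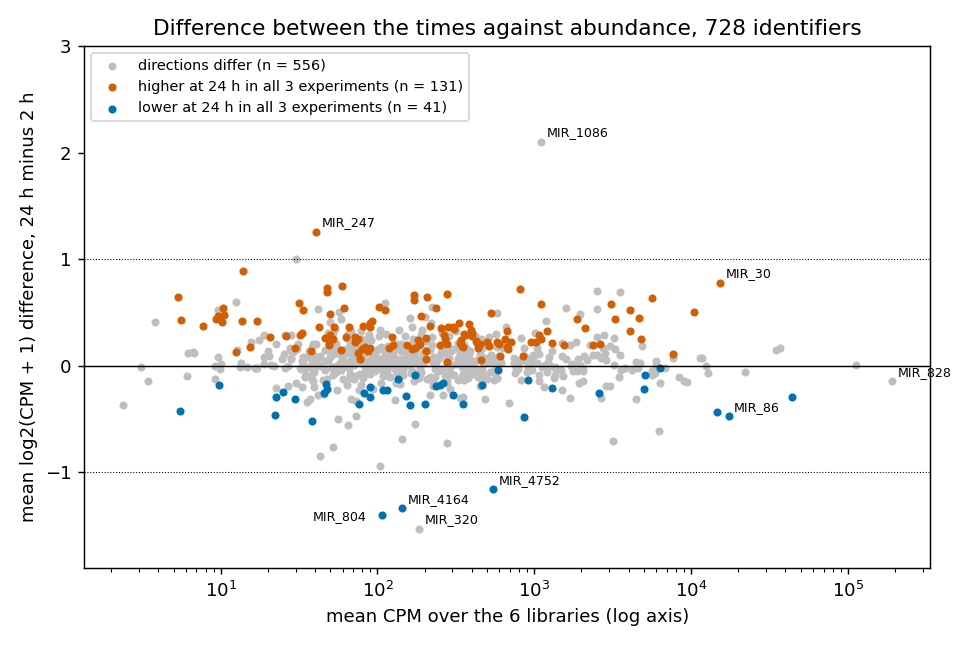
Each point is 1 of 728 identifiers, with the mean CPM over the 6 water libraries on a log axis and the mean difference in log2(CPM + 1) between 24 h and 2 h on the other axis. Orange and blue points were higher (131) or lower (41) at 24 h in all 3 experiments, grey points (556) differed in direction, and the dotted lines mark 1 log2 unit. The 7 estimates outside the dotted lines all lie at a mean between 10 and 10000 CPM.

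None of the 10 most abundant small RNAs passed the test for time. MIR_828, the most abundant identifier, had 163898, 198843 and 182992 CPM at 24 h in experiments 1, 2 and 3, against 193385, 196826 and 212040 CPM at 2 h. The 2 groups overlapped with CPM, whereas with TMM every 24 h library lay below every 2 h library. The log2 difference was -0.15 in edgeR (limma interval -0.53 to 0.24, edgeR adjusted p = 0.997). MIR_352, the next, had 101067, 114073 and 121530 CPM at 24 h, against 95174, 117699 and 122465 CPM at 2 h. Its order within experiments was mixed and its log2 difference was 0.01 (limma interval -0.36 to 0.38), a sign that turned to -0.05 with TMM. MIR_829 had 11718 to 13210 CPM at 24 h, against 12187 to 14269 CPM at 2 h, so the groups overlapped.

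MIR_6, MIR_86 and MIR_36 were lower at 24 h in 3 of 3 experiments. MIR_6 had 57341, 32015 and 26612 CPM at 24 h, against 83185, 33828 and 31752 CPM at 2 h, with a log2 difference of -0.29 (limma interval -0.69 to 0.11). MIR_86 had 23712, 9398 and 9946 CPM at 24 h, against 35333, 13814 and 12128 CPM at 2 h, at -0.47 log2 units (interval -0.86 to -0.09, edgeR adjusted p = 0.963). MIR_36 had 18949, 8253 and 10059 CPM at 24 h, against 25860, 9502 and 15711 CPM at 2 h, at -0.43 log2 units (interval -0.83 to -0.03, edgeR adjusted p = 0.997). In all 3 identifiers, experiment 1 was the high one at both times, and its level at 24 h lay above both other experiments at 2 h.

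MIR_30 was the one of the 10 that was higher at 24 h in 3 of 3 experiments. It had 8832, 24170 and 20993 CPM at 24 h, against 2949, 16890 and 17829 CPM at 2 h. Here experiment 1 was the low one at both times. The log2 difference of 0.77 (limma interval 0.19 to 1.37, edgeR adjusted p = 0.922) came from pairs at 1.58, 0.52 and 0.24 and was 0.38 without experiment 1. MIR_57, MIR_183 and MIR_353 had pairs of both signs. MIR_57 had 61800 CPM at 24 h and 32233 CPM at 2 h in experiment 1, whereas in experiment 2 it had 25028 CPM at 24 h and 34262 CPM at 2 h. Its log2 difference was 0.16 over the 3 experiments and -0.22 without experiment 1.

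The counts were concentrated in few identifiers at both times. The 10 most abundant held 51.6%, 48.3% and 46.8% of the counts of the 728 identifiers at 24 h in experiments 1, 2 and 3, against 54.2%, 48.8% and 51.0% at 2 h. The share was thus lower at 24 h in 3 of 3 experiments, with a mean difference of -2.43 percentage points, with an exact permutation p of 0.25 (two-sided sign flips of the 3 pairs), the smallest p that 3 pairs allow. Between 9 and 12 identifiers made up 50% of these counts at 24 h, against 7 to 11 at 2 h. For 90%, 141 to 178 were needed at 24 h and 147 to 161 at 2 h.

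The spread of the time differences between experiments is given by abundance class, beside the SD that counting alone would give, as a description of the precision. The SD between experiments is on the log2(CPM + 1) scale without TMM factors. The counting SD is from the counts alone, so the scales differ most for identifiers of low CPM. The 14 identifiers at or above 10000 CPM held 54.7% of the counts on average. Their log2 differences had a median SD of 0.38 between experiments, where counting alone would give 0.0082. For the 112 identifiers from 1000 to under 10000 CPM the median SD was 0.29, against 0.021 from counting. The 344 identifiers from 100 to under 1000 CPM stood at 0.30, against 0.059, and the 238 from 10 to under 100 CPM at 0.33, against 0.134. For the 20 identifiers under 10 CPM the median SD was 0.46, against 0.38 from counting. Intervals within 1 log2 unit of 0 were found for 12 of 14, 100 of 112, 320 of 344, 213 of 238 and 8 of 20 identifiers in these classes, from high to low.

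In the same fit, edgeR called 13 identifiers (1.79%) for a difference among the 3 experiments, with 124 (17.0%) at an unadjusted p under 0.05. The call count was 7 with TMM, 5 with RLE and 6 with upper-quartile factors, all of them among the 13. Without experiment 1 it was 0, without experiment 3 it was 0, and without experiment 2 it was 30, of which 12 were among the 13. DESeq2 called 39, limma-voom 10 and limma-trend 12.

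In 11 of the 13, experiment 1 was the farthest from the middle experiment, and in the other 2, MIR_143 and MIR_5410, experiment 3 was. MIR_4164 had 6.03 CPM at 24 h and 39.3 CPM at 2 h in experiment 1, whereas the other 4 libraries lay between 149 and 320 CPM. MIR_1608 had 66.9 CPM at 24 h and 62.5 CPM at 2 h in experiment 1 and 171 to 322 CPM in the other 4 libraries. Experiment 1 was thus low at both times in these and also in MIR_4106, MIR_4643 and MIR_30. In MIR_6, MIR_94, MIR_74, MIR_86, MIR_36 and MIR_1353 it was high at both times, at 2.06 to 2.65 times the mean of experiments 2 and 3. MIR_94, for example, had 12914 CPM at 24 h and 17115 CPM at 2 h in experiment 1, against 4465 to 8888 CPM in the other 4 libraries.

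The 10 ammonium libraries after irrigation that list most common identifiers came from the same 3 experiments and were not used to choose these 13. Of the 13, 9 could be tested there, and 7 of the 9 passed for a difference among experiments in edgeR, where 137 of all 551 identifiers tested (24.9%) passed. MIR_86 (edgeR adjusted p = 0.117) and MIR_6 (0.0512) did not pass. With TMM factors 6 of the 9 passed, where 31 of the 551 (5.63%) did, and MIR_86 (0.0359) and MIR_6 (0.0316) were among the 6. MIR_143 (edgeR adjusted p = 0.154) and MIR_30 (0.184) were among those that no longer passed. MIR_94 had 27640 to 30809 CPM in the 3 ammonium libraries of experiment 1 and 6219 to 13528 CPM in the 7 of experiments 2 and 3. MIR_1608 had 51.2 to 77.7 CPM in the 3 libraries of experiment 1 and 171 to 372 CPM in the 7 others. The direction of experiment 1 was therefore the same as in the water roots for both, which had the smallest edgeR adjusted p of the 9 (0.00421 each).

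**Figure D2:**
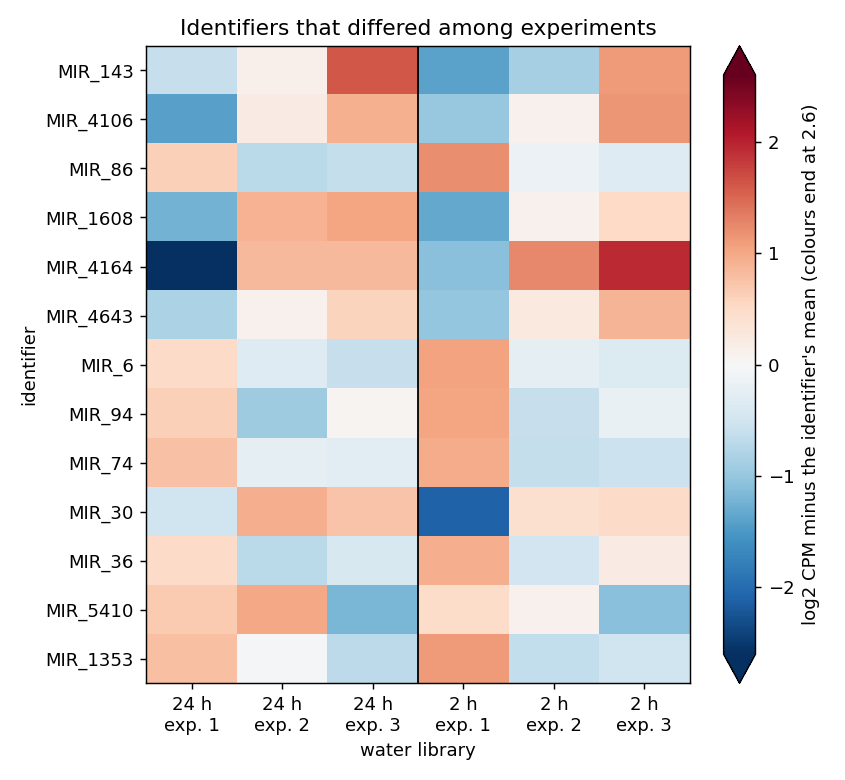
Rows are the 13 identifiers that differed among experiments, columns the 6 water libraries (24 h on the left of the line, 2 h on the right), and colour is the log2 CPM minus the identifier's mean, with the colour scale ending at 2.6. In 11 of the 13 rows, experiment 1 has the most distinct level, and it is on the same side of the mean at both times.

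Distances between whole libraries were set side by side over all 728 identifiers, with no test. After TMM scaling, the median absolute log2 difference averaged 0.225 over the 3 pairs of libraries that share an experiment and differ in time (0.210 to 0.245). It averaged 0.273 over the 6 pairs that share a time and differ in experiment (0.194 to 0.336), so the 2 ranges overlapped. Over the pairs that differ in both time and experiment it averaged 0.265 (0.193 to 0.361). The 2 h library of experiment 1 was the most distant, at 0.336 and 0.319 from the other 2 h libraries and at 0.361 from the 24 h library of experiment 3. Across identifiers, the time differences of the 3 experiments had Pearson correlations of -0.09 (experiments 1 and 2), 0.11 (1 and 3) and -0.07 (2 and 3) over the 728 identifiers with TMM scaling, given as a description.

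**Figure D3:**
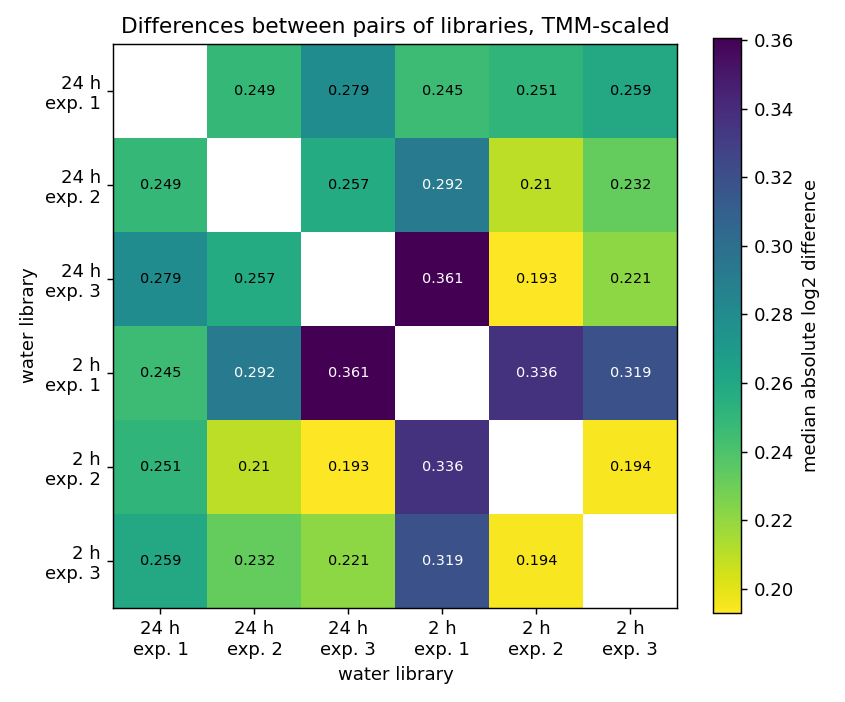
Each cell gives the median absolute log2 difference over the 728 identifiers between 2 water libraries after TMM scaling, with libraries ordered as 24 h and then 2 h. Darker cells mark larger differences, and the row of the 2 h library of experiment 1 is the darkest, at 0.245 to 0.361.

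The 6 higher and the 6 lower identifiers at 24 h with the smallest unadjusted p for time are given by their values, since none passed. MIR_247 had 49.8, 66.2 and 54.8 CPM at 24 h in experiments 1, 2 and 3, against 27.1, 29.5 and 15.2 CPM at 2 h. The groups did not overlap, and the means were 56.9 ± 8.42 CPM at 24 h and 24.0 ± 7.65 CPM at 2 h (SD, n = 3 each). The log2 difference was 1.28 (limma interval 0.70 to 1.82), with an adjusted p of 0.501 in edgeR and 0.00865 in DESeq2. MIR_5463 had 57.9, 58.2 and 61.4 CPM at 24 h, against 40.1, 35.9 and 30.7 CPM at 2 h. MIR_8394 had 19.3, 16.0 and 19.8 CPM at 24 h, against 12.1, 8.30 and 8.17 CPM at 2 h. In these 2 the groups did not overlap either, and the log2 differences were 0.74 and 0.95, with an adjusted p of 0.774 in edgeR for both.

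The other 3 on the higher side overlapped between the times with CPM, of which MIR_1680 was apart with TMM, and were higher within each experiment. MIR_217, the 28th most abundant identifier, had 8627, 5912 and 5866 CPM at 24 h, against 6470, 3378 and 3681 CPM at 2 h, at 0.63 log2 units (limma interval 0.24 to 1.03). MIR_143 had 29.8, 49.0 and 137 CPM at 24 h, against 17.1, 24.7 and 96.1 CPM at 2 h, at 0.76 log2 units (interval 0.27 to 1.22). MIR_1680 had 42.6, 76.5 and 59.2 CPM at 24 h, against 30.0, 47.7 and 30.9 CPM at 2 h, at 0.71 log2 units (interval 0.22 to 1.17). Each of the 3 had an edgeR adjusted p of 0.774. In MIR_143, experiment 3 was the high one at both times, and its 2 h level lay above the 24 h level of both other experiments.

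On the lower side, MIR_804 had 24.3, 54.1 and 56.3 CPM at 24 h, against 38.8, 99.0 and 365 CPM at 2 h. It was lower in 3 of 3 experiments, with the 2 h library of experiment 3 far above the rest, and stood at -1.42 log2 units (limma interval -2.24 to -0.56, edgeR adjusted p = 0.774) and at -0.78 without experiment 3. MIR_4164 had 6.03, 150 and 149 CPM at 24 h, against 39.3, 198 and 320 CPM at 2 h, at -1.29 log2 units (interval -2.15 to -0.52), with an adjusted p of 0.774 in edgeR and 0.0383 in DESeq2. Its pairs were at -2.52, -0.40 and -1.10, the 24 h library of experiment 1 held 31 counts of it, and without experiment 1 the difference was -0.75. MIR_86 is described above. MIR_4853, MIR_12728 and MIR_7114 were lower at 24 h in 2 of 3 experiments and near equal or higher in the other one with CPM, whereas MIR_4853 and MIR_12728 were lower in 3 of 3 and without overlap with TMM. MIR_4853 had 130, 211 and 288 CPM at 24 h, against 265, 486 and 279 CPM at 2 h. MIR_12728 had 26.8, 60.8 and 32.4 CPM at 24 h, against 67.6, 58.5 and 67.6 CPM at 2 h, and MIR_7114 had 16.1, 29.4 and 48.3 CPM at 24 h, against 43.4, 78.6 and 41.5 CPM at 2 h. Their log2 differences were -0.73, -0.78 and -0.87, and with 1 experiment left out they ran from -1.12 to -0.49, from -1.20 to -0.49 and from -1.42 to -0.57.

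**Figure D4:**
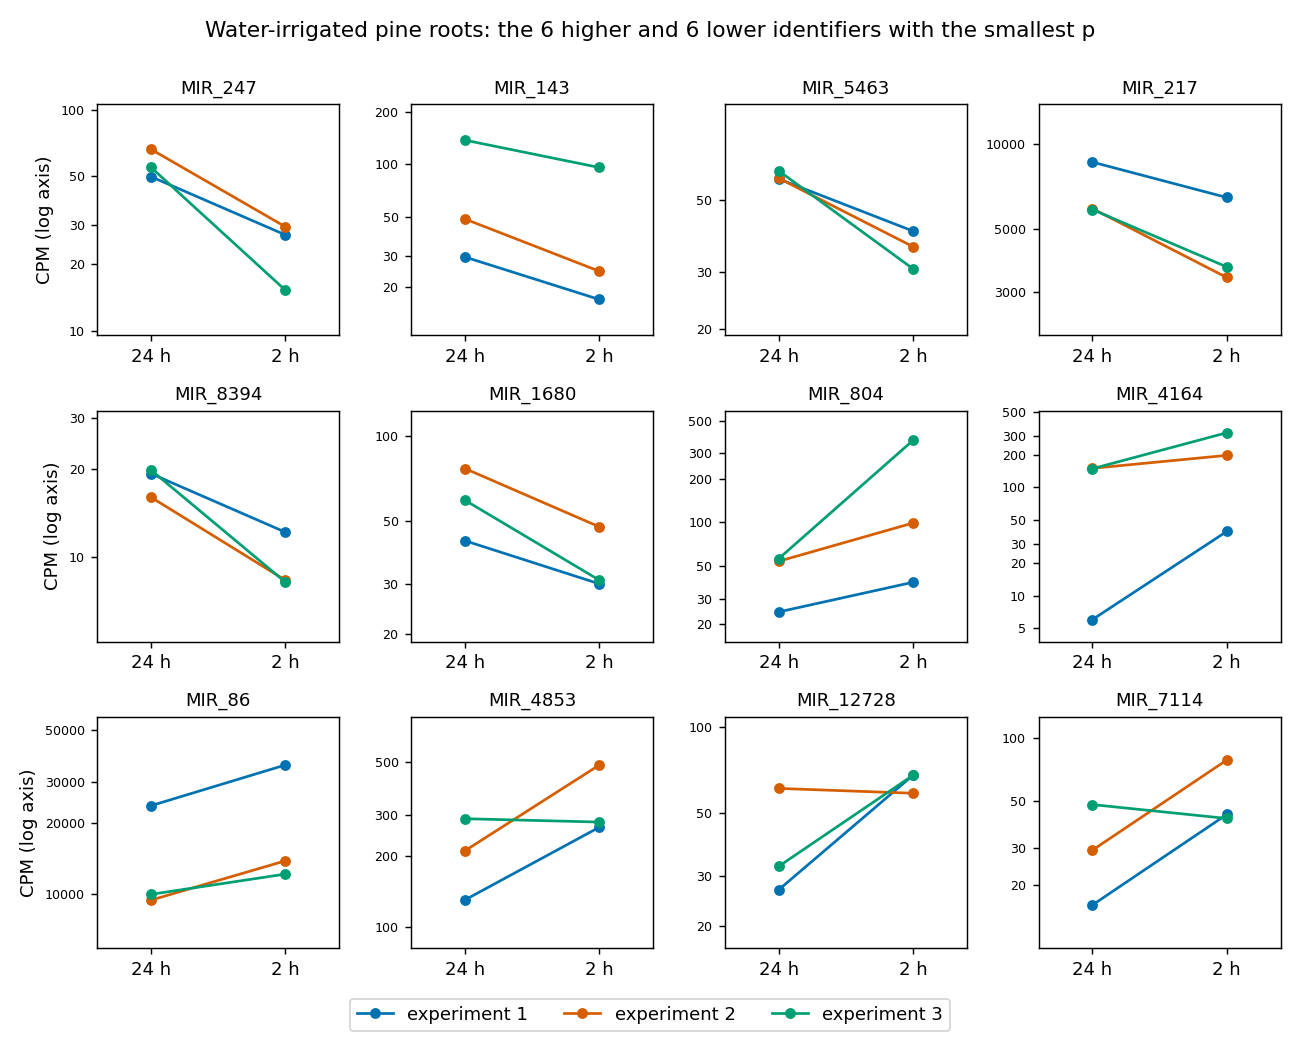
CPM on a log axis at 24 h (left) and 2 h (right) for the 6 higher and 6 lower identifiers with the smallest unadjusted p, 1 line for each experiment. The first 6 panels slope the same way in all 3 experiments, as do MIR_804, MIR_4164 and MIR_86, and the last 3 panels each hold 1 experiment that does not.

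Among identifiers of at least 100 CPM that differed the same way in 3 of 3 experiments, the size of the difference varied between the pairs. MIR_4752 had 205, 412 and 319 CPM at 24 h, against 1438, 458 and 461 CPM at 2 h, and the groups did not overlap. Its log2 difference of -1.12 (limma interval -2.17 to -0.15) came from pairs at -2.80, -0.15 and -0.53, and without experiment 1 it was -0.34. MIR_7051 had 713, 656 and 769 CPM at 24 h, against 728, 1219 and 1095 CPM at 2 h, where experiment 1 was the flat pair and the pairs had both signs with TMM. On the higher side, MIR_4894 had 170, 197 and 262 CPM at 24 h, against 99.1, 162 and 137 CPM at 2 h, without overlap, at 0.66 log2 units (interval 0.20 to 1.12). MIR_358 (0.72 log2 units), MIR_4644 (0.67) and MIR_407 (0.64) overlapped between the times. Without experiment 1, MIR_358 stood at 0.47 and MIR_4644 at 0.34, and without experiment 3, MIR_407 stood at 0.33. These 6 had an edgeR adjusted p of 0.835 to 0.997.

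Of identifiers above 1000 CPM whose times did not overlap, MIR_837 was chosen after its values were seen. It had 4741, 4519 and 5242 CPM at 24 h, against 3143, 3492 and 3420 CPM at 2 h, and was apart under both scalings. Its log2 difference was 0.53 and its edgeR adjusted p 0.878.

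Roots given ammonium allow the same time difference to be read in libraries that the water comparison does not use. In 4 pairs (0.1 mM in experiments 2 and 3, 3 mM in experiments 1 and 3) both libraries list most common identifiers, and 457 identifiers were above 0 in all 14 libraries of the 3 water and 4 ammonium pairs. All of these pairs came from the same 3 experiments, and experiment 3 gave 2 of the 4 ammonium pairs. The pairs are thus not independent runs, and the tests below do not allow for that. The difference between the time change in water and the time change in ammonium, both doses together, was tested in edgeR with each pair as a block. It called 0 of 457 (0%), with 27 (5.91%) at an unadjusted p under 0.05, and its limma interval lay within 1 log2 unit of 0 for 363. DESeq2 called 1, MIR_4106, at -0.84 log2 units (adjusted p = 0.00135), while limma-voom and limma-trend called 0. In ammonium alone, edgeR called 0 of 457 (0%) for time, with 32 (7.00%) at an unadjusted p under 0.05. DESeq2 called 8 there, MIR_143, MIR_1191, MIR_1608, MIR_1792, MIR_1870, MIR_4106 and MIR_8394 as higher and MIR_361 as lower at 24 h, with adjusted p from 0.000179 to 0.0451. Without experiment 1 edgeR called MIR_7040 and without experiment 3 MIR_1191 in the ammonium pairs.

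MIR_4106 had 950, 2927 and 4768 CPM at 24 h in water roots, against 1278, 2740 and 5619 CPM at 2 h, so its water pairs had both signs at -0.42, 0.10 and -0.22 log2 units. Its 4 ammonium pairs were all positive, at 0.43 to 0.75. The difference between the arms, water minus ammonium, was -0.73 log2 units (limma interval -1.13 to -0.33) with an edgeR adjusted p of 0.799. MIR_1680, at 0.50 to 0.93 in the water pairs, was at -0.29 to 0.23 in the ammonium pairs, and MIR_86 was negative in 3 of 3 water pairs and positive in 3 of 4 ammonium pairs. Their differences between the arms were 0.69 and -0.62 log2 units, with an edgeR adjusted p of 0.799 for both.

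Higher levels at 24 h in all 7 pairs, which came from only 3 experiments, were found for 7 identifiers (1.53% of 457) and lower levels for 3 (0.656%). With TMM factors, 6 of the 7 and none of the 3 stayed so, and 3 other identifiers were lower in all 7 pairs. The 6 were MIR_143, MIR_1191, MIR_1608, MIR_1792, MIR_1870 and MIR_8394, which were singled out here after their values were seen. All 6 are among the 8 that DESeq2 called in the ammonium pairs, and edgeR called none of them over all 4 pairs. That DESeq2 call is no independent support for any of the 6, since the signs of the same 4 pairs entered their choice. MIR_1792 and MIR_1870 had also been picked for their time difference by an earlier look at these libraries. In another 10 (2.19%), the 3 water pairs had one sign and the 4 ammonium pairs the other. MIR_143 was at 0.73 log2 units in the ammonium pairs (limma interval 0.36 to 1.08, adjusted p = 0.167 in edgeR and 0.000904 in DESeq2). MIR_8394 was at 0.68 (interval 0.27 to 1.00, adjusted p = 0.209 in edgeR and 0.0444 in DESeq2). MIR_247 was positive in 3 of 4 ammonium pairs, at 0.58 log2 units (interval -0.01 to 1.12, edgeR adjusted p = 0.705).

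MIR_1792 and MIR_1870 had been named by an earlier comparison of the times over all treatments of these data. The DESeq2 calls above are thus no independent support for them, and their values are given here as a description. MIR_1792 had 36.8, 35.6 and 46.8 CPM at 24 h in water roots, against 24.3, 30.3 and 27.4 CPM at 2 h, without overlap. MIR_1870 had 68.4, 87.6 and 60.5 CPM at 24 h, against 36.8, 57.1 and 54.3 CPM at 2 h, again without overlap. On the scale of the 457 identifiers, their water pairs ran from 0.22 to 0.77 and from 0.17 to 0.89 log2 units, and their ammonium pairs from 0.62 to 0.89 and from 0.46 to 0.72. Both ranks were low, with MIR_1870 the 561st and MIR_1792 the 650th of 728 by mean CPM.

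**Figure D5:**
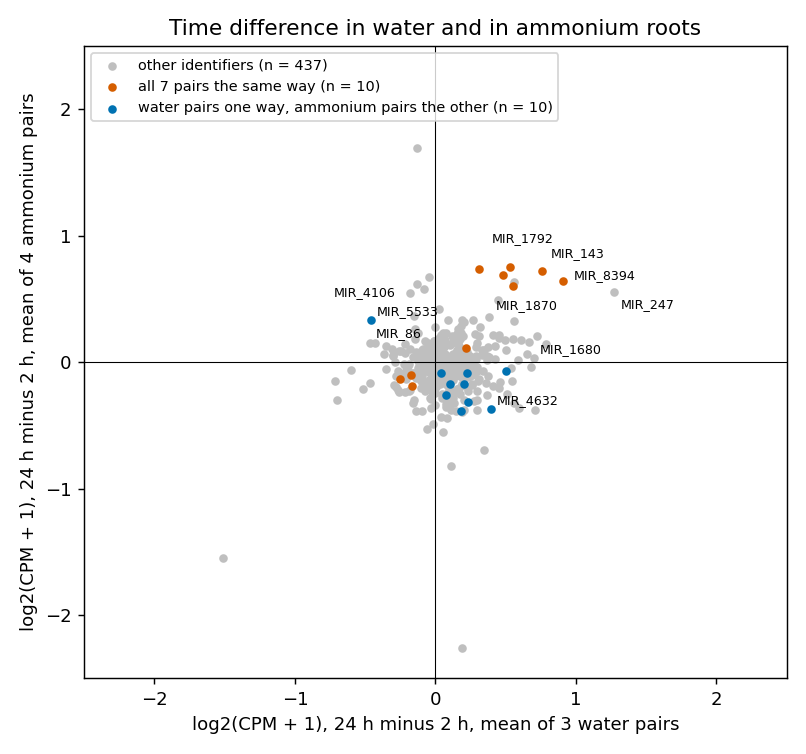
Each point is 1 of 457 identifiers, with the mean log2(CPM + 1) difference between 24 h and 2 h over 3 water pairs on the horizontal and over 4 ammonium pairs on the vertical axis. Orange points (10) have all 7 pairs on the same side, blue points (10) have water and ammonium pairs on opposite sides, and the rest (437) are grey. The cloud centres near 0 on both axes, with MIR_143, MIR_8394, MIR_1792 and MIR_1870 together at the upper right.

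The roots taken before irrigation place some of these levels in experiment 2, the one experiment whose library before irrigation lists most common identifiers. Here CPM is of all counts of a library. MIR_247 had 19.4 CPM before irrigation, 19.7 CPM at 2 h and 43.2 CPM at 24 h. MIR_5463 had 28.7, 23.9 and 38.0 CPM and MIR_8394 5.25, 5.53 and 10.4 CPM at these 3 times, so in these 3 identifiers the level before irrigation lay nearer to that at 2 h than to that at 24 h. The same held for MIR_1680, at 32.2, 31.8 and 49.9 CPM. MIR_217, at 3361, 2251 and 3858 CPM, lay nearer to 24 h before irrigation. MIR_143, at 71.7, 16.5 and 31.9 CPM, also lay nearer to 24 h, above both later levels. MIR_804 had 459, 66.0 and 35.3 CPM and MIR_86 had 2016, 9204 and 6133 CPM. These are single libraries with no replicate check, and the 2 h and 24 h values also entered the choice of the identifiers.

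All 3 libraries at 24 h and none at 2 h listed 44 identifiers, and 55 were listed the other way round, 0.337% and 0.421% of those listed by any of the 6. MIR_12277 had 7413, 12096 and 9220 counts at 24 h and was not listed at 2 h. In the ammonium libraries that list most common identifiers, it was listed by 4 of 4 at 24 h and by 2 of 6 at 2 h. MIR_7582 and MIR_7769 were also listed by the water libraries at 24 h only. Such ammonium libraries listed MIR_7582 in 3 of 4 at 24 h and 4 of 6 at 2 h, and MIR_7769 in 1 of 4 and 3 of 6. MIR_319 had 4151, 10905 and 14250 counts at 2 h and was not listed at 24 h, and 1 of 4 such ammonium libraries at 24 h and 1 of 6 at 2 h listed it. MIR_7504 and MIR_1157 were also listed by the water libraries at 2 h only. Such ammonium libraries listed MIR_7504 in 2 of 4 at 24 h and 3 of 6 at 2 h, and MIR_1157 in 3 of 4 and 4 of 6. No fold is given for these, since abundant identifiers were also left unlisted within a group.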

How the data were processed

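The authors deposited whole-number read counts per identifier and library, not normalised. The tools named, per the submitters' processing notes, are bcl2fastq and edgeR. Aligner, miRNA caller, genome build and filters: not given in the sources used here. Per the labels' protocols, RNA with an integrity number above 7 was cut from gels between 18 and 30 bp and read as single 50 bp reads. No count from 1 to below 5 occurs, and 86.6% of values are 0.

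Identifiers above 0 in all 6 water libraries were kept and scaled to their own sum, with no further factor. Time was tested with edgeR 4.0.16 (glmQLFit, glmQLFTest) in R 4.3.3, with the experiment as a block. Intervals are from limma 3.58.1 on log2(CPM + 1), a scale that understates differences of low identifiers. Alternatives were TMM, RLE and upper-quartile factors, filters (mean CPM of 10, count of 50), DESeq2 1.42.0, limma-voom, limma-trend, other sets of libraries or identifiers, no block, and each experiment left out. The fits were also run on simulated counts whose dispersions were estimated from these same libraries, which is no independent check of the calls. Equal experiment numbers mark a shared run per the labels, and deviations from the group means correlated at 0.445, 0.102 and 0.305 between same-numbered water libraries (experiments 1, 2 and 3). Between differently numbered ones they ran from -0.401 to 0.221, and the 2 h library of experiment 2 correlated more with the 24 h library of experiment 3 (0.221) than with its own (0.102). A library was taken to list most common identifiers when it listed at least 50% of those that at least 10 others list.

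Named identifiers were those past the threshold, or, with fewer than 10, the 6 higher and 6 lower with the smallest p. To these came the 10 most abundant, the 5 higher and 5 lower with the largest difference among those of at least 100 CPM that moved the same way in all experiments, and MIR_1792 and MIR_1870. The comparison, its members and its lists were chosen with earlier results of these data known. The test of experiments in ammonium libraries and the counts of directions under other scalings were added after the data were seen.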

Additional observations from a re-analysis of the deposited data

Results flagged for a closer look

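For 10 of the 457 identifiers (2.19%), all 3 water pairs moved one way between 24 h and 2 h and all 4 ammonium pairs the other. None passed the test of that difference in edgeR, where the smallest adjusted p was 0.799. The differences, water minus ammonium in log2 units, were -0.81 for MIR_5533, 0.77 for MIR_4632, 0.58 for MIR_5084, 0.57 for MIR_387, 0.55 for MIR_4610, 0.38 for MIR_4749, 0.33 for MIR_5173, 0.31 for MIR_1079, 0.27 for MIR_4767 and 0.12 for MIR_835. With TMM factors, MIR_5533 and MIR_4632 remained among the 6 identifiers with opposite pairs, and the other 8 did not. MIR_5533 had 21.4, 16.5 and 17.6 CPM at 24 h in water roots, against 30.0, 23.9 and 23.6 CPM at 2 h.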

How the results depend on the processing

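The call count for time in water roots was 0 under every scaling, filter, limma fit and set of identifiers tried, and also with all 17 libraries that list most common identifiers in one fit (36 at an unadjusted p under 0.05). The exceptions were DESeq2 with 2 and the fits without 1 experiment, which gave 0 to 1. Without the replicate block edgeR called 0, with 14 at an unadjusted p under 0.05 against 31 with it, so the block changed no call. For the experiments, 13 calls became 7 (TMM), 5 (RLE), 6 (upper-quartile) and 39 (DESeq2), and 0 to 30 without 1 experiment. For the difference between water and ammonium in time change, DESeq2 gave 1 call in place of 0. For time in ammonium roots, DESeq2 gave 8, and fits without 1 experiment gave 0 to 1. Identifiers higher and lower in all 3 experiments numbered 131 and 41 with CPM, 85 and 75 with TMM, 82 and 81 with RLE, and 62 and 96 with upper-quartile factors. The cause of these shifts was not tested beyond the change of scaling itself. Of 423 alternative values for the 29 named identifiers, 413 kept direction and side of the threshold. None of the 29 passed in the main fit, and many were chosen by direction or p in these same libraries. The count is therefore a description and no check of the identifiers. MIR_247 and MIR_4164 passed with DESeq2 (1.21 and -1.41 log2 units). MIR_352, at 0.01 log2 units, turned to -0.0533 (TMM), -0.0627 (RLE and DESeq2) and -0.0844 (upper-quartile). Without 1 experiment each, it ran from -0.0281 to 0.0378, MIR_57 from -0.22 to 0.476, MIR_183 from -0.0356 to 0.298 and MIR_353 from -0.257 to 0.206, and each of these 4 turned sign without experiment 1. The share of the 10 most abundant identifiers stayed lower at 24 h, by -3.41 to -1.55 points without 1 experiment. The 20 identifiers under 10 CPM had a median of 30.5 counts, and 8 of them had intervals within 1 log2 unit of 0.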
